A study of Mus musculus with 8 samples.

Results

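Atm+/+ mouse embryonic fibroblasts, connective tissue cells grown from embryos, were followed over 24 h after neocarzinostatin (NCS), a drug that cuts both DNA strands much as ionizing radiation does. The series holds 8 one-colour arrays. Its 4 Atm+/+ arrays, 1 each at 0, 4, 8 and 24 h, are the subject here, and they were chosen by their labelled genotype and time. The Atm-/- fibroblasts, described as littermates that lack the kinase Atm, were sampled once at the same 4 times and enter the tests and the comparison at the end. All 8 cultures share the same serum-containing medium. The 0 h culture is the starting point labelled T0, and no untreated culture at 4, 8 or 24 h is among the samples. The labels name no NCS dose, and the number of embryos behind the cultures is not given in them. Every Atm+/+ change below is therefore a reading at 4, 8 or 24 h minus the same single 0 h reading, and the effect of NCS cannot be told apart from time in culture. The study asked how long noncoding RNAs behave after DNA damage, and its arrays also carry probes for coding genes.

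DNA double-strand breaks activate Atm, which stabilizes the transcription factor p53 through phosphorylation. p53 then switches on Mdm2, its own inhibitor, along with the cell cycle inhibitor Cdkn1a and genes of cell death such as Fas. Checkpoints that hold cells before S phase or mitosis lower the RNA of replication and mitosis genes, which E2F and the DREAM complex control. Breaks also signal to NF-kB, which drives cytokines and chemokines, and DNA that reaches the cytoplasm can start an interferon response.

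Levels are log2 intensities from which the 75th percentile of each array was subtracted, so a level of 0 is a bright probe, and a change is a difference of levels on the same log2 scale. Levels of different probes were not compared. On the 4 Atm+/+ arrays 59.8%, 59.6%, 58.8% and 57.3% of spots were well above background at 0, 4, 8 and 24 h. The scanner software marked 54, 44, 195 and 1545 spots as outliers in the same order, and 1514 probes have no usable value at 24 h for that reason. All 4 arrays sat on the same slide, at array positions that follow time, so position and time cannot be told apart. The fibroblast label was checked on 11 markers: all 11 were well above background on all 4 Atm+/+ arrays. Markers of other cell types were widely detected too. Well above background on all 4 arrays were 24 of 28 macrophage and blood markers with a probe, 11 of 18 epithelial, 11 of 13 endothelial, 7 of 14 lymphocyte, 11 of 15 muscle, 10 of 16 bone, cartilage and fat, and 13 of 15 neural markers. Ptprc, the pan-leukocyte phosphatase CD45, was so on only 1 array. On no Atm+/+ array were 5 of the lymphocyte markers, 4 epithelial, 2 endothelial, 1 muscle, 2 bone, cartilage and fat, 2 neural and 0 macrophage and blood markers.

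One model over all 8 arrays (limma, with genotype and treatment giving 4 groups) compared the mean of the 3 treated Atm+/+ arrays with the 0 h array. It leaves 4 residual degrees of freedom, and it assumes that the lone 0 h array varies like the others. Of 23265 probes tested, 2 were called at an adjusted p under 0.05, or 0.0086%, and both were lower after NCS. None was called higher, although 402 were higher at an unadjusted p under 0.05 (1.73%) and 293 were lower (1.26%). Under the other settings tried the number called higher was 0 or 1. The labels do not state that any arrays are separate cultures of 1 condition. These p-values measure the spread between treated arrays of different times within each genotype. A gene that varies over the treated times therefore has a larger spread in this test. Data were also simulated for 21558 probes, with the same shift on all 3 treated Atm+/+ arrays and a 0 h array that varied like the others. There the test recovered 94.0% of probes shifted by 4 on the log2 scale, 49.25% of those shifted by 2 and 7.58% of those shifted by 1. Shifts that change over time were not simulated. Time courses are therefore given as values, with a change named where the 3 treated arrays went the same way.

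The number of probes past 2-fold was larger at each later time. At 4 h, 205 of 22633 probes read at least 2-fold higher than at 0 h (0.906%) and 100 at least 2-fold lower (0.442%). At 8 h the counts were 371 (1.65%) and 274 (1.22%) of 22484 probes. At 24 h they were 435 (2.06%) and 493 (2.33%) of 21165, so that lower readings outnumbered higher ones only at the last time. That balance depends on how the 24 h array is scaled: when outlier spots were left out of the percentile, the 24 h counts became 1340 higher and 108 lower, and the median change of all genes at 24 h moved from -0.04 to 0.33. The number of at least 4-fold higher readings was greatest at 8 h, with 50 at 4 h, 69 at 8 h and 43 at 24 h. The middle 90% of changes ran from -0.42 to 0.38 at 4 h, from -0.58 to 0.57 at 8 h and from -0.77 to 0.70 at 24 h. In Atm-/- cells the same counts were 188 higher and 121 lower at 4 h, 213 and 261 at 8 h, and 521 and 621 at 24 h.

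Probes with a value at all 3 treated times were sorted into shapes. A sustained probe was at least 2-fold from 0 h on all 3 treated arrays in the same direction. There were 58 such probes up (0.274% of 21149) and 41 down (0.194%). A transient probe passed 2-fold at 4 or 8 h and was back within 0.5 on the log2 scale at 24 h, which held for 187 probes up (0.884%) and 124 down (0.586%). A late probe stayed within 0.5 at 4 and 8 h and passed 2-fold at 24 h, which held for 160 up (0.757%) and 267 down (1.26%). A further 331 probes up and 288 down passed 2-fold at some time in other ways, 3 passed it in both directions, and 19690 never passed it. With outlier spots removed before scaling, late probes numbered 697 up and 45 down, so their balance reversed. Transient probes up numbered 73 in the same way. The sustained probes up carried 44 gene symbols, and 16 of those symbols (36.4%) stand on the chemokine, cytokine, NF-kB or interferon lists, as do 132 of all 12723 symbols with 3 changes (1.04%). The sustained probes down carried 22 symbols, and none of them stands on those lists. The lists were chosen with earlier results of these data known, so these shares describe the class and test nothing. The adjusted p in the 8-array model, which uses the same arrays as the shapes, was at least 0.273 for each of the 58 probes up. Agreement on 3 arrays is stricter than on fewer: the sustained counts were 136 up and 69 down without the 4 h array and 117 and 62 without the 24 h array.

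**Figure D1:**
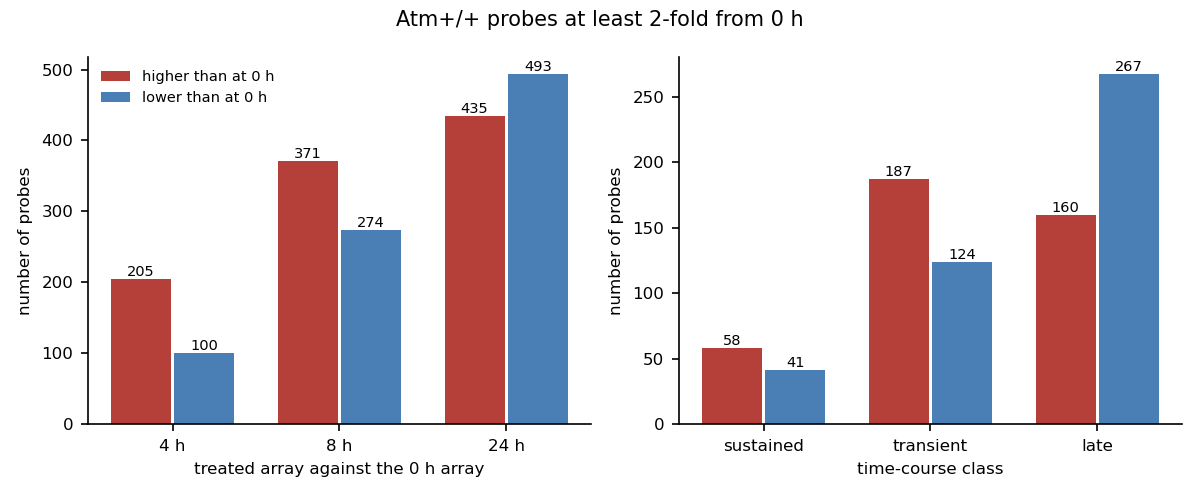
Number of probes at least 2-fold higher or lower than the 0 h array at 4, 8 and 24 h in Atm+/+ cells, and number of probes in the sustained, transient and late shapes. Higher readings numbered 205, 371 and 435 and lower readings 100, 274 and 493. Of the shapes, 58 probes were sustained up and 41 sustained down. The 24 h, transient and late counts depend on how the 24 h array is scaled.

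Most of the sustained genes with the largest changes were inflammatory. Their cytokines and chemokines were highest at 4 or 8 h and were still above 0 h at 24 h. Tnf, the cytokine that itself activates NF-kB, read -2.58 at 0 h, 2.41 at 4 h, 0.93 at 8 h and -1.10 at 24 h. It was thus 31.7-fold, 11.3-fold and 2.79-fold above 0 h, highest at 4 h and lower at each later time, with a mean response of 3.32 ± 1.56 on the log2 scale (SE; limma adjusted p = 1.00). Cxcl1, a neutrophil attractant, read -1.31, 2.84, 1.74 and 0.80 in the same order, or 17.8-fold, 8.28-fold and 4.33-fold above 0 h. Ccl4, an attractant of monocytes and T cells, read -1.27, 2.99, 2.16 and 0.38, with folds of 19.2, 10.7 and 3.14. These 3 genes had in common a peak at 4 h and a partial return. The same shape, lower at each later time with at least 1 log2 unit between 4 and 24 h, was found in Cd69, a leukocyte activation marker, in Hcar2, a receptor for niacin and ketone bodies, and in the noncoding transcript AK030791.

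A larger group peaked at 8 h: 35 of the 58 sustained probes up were highest there, against 11 at 4 h and 12 at 24 h. That split depends on how the 24 h array is scaled. Leaving outlier spots out of the percentile moved the median change of all genes at 24 h from -0.04 to 0.33. At 8 h it moved from -0.02 to 0.02. Probes with close 8 and 24 h changes, such as Casp4 with 1.92 and 1.84, can thus change order. The peaks were not counted again under that scaling. Ccl20, an attractant of lymphocytes and dendritic cells, read -5.10 at 0 h and -1.03, -0.56 and -2.37 after NCS. Its folds were 16.7, 23.2 and 6.62, and its response of 3.78 ± 0.79 (SE) had a limma adjusted p of 0.865. Cxcl13, an attractant of B cells, read -5.36, -2.83, -1.79 and -2.94, with a response of 2.84 ± 0.45 and an adjusted p of 0.42, the lowest among the chemokines. Both stood above 0 h on all 3 treated arrays by more than 4-fold, and both were highest at 8 h. Il1b, the secreted interleukin 1, was not well above background at 0 h and read 0.21 at 4 h, 0.43 at 8 h and -3.57 at 24 h. Set against the floor of the 0 h array, the lowest signal there that stood well above background, it was at least 68.3-fold, 79.3-fold and 4.96-fold higher. Such a bound is written as "at least" below. Il1a, the membrane-associated interleukin 1, read -5.12, -0.72, -0.38 and -3.64, with folds of 21.1, 26.7 and 2.8. Acod1, the enzyme that makes itaconate in activated macrophages, read -5.36, 0.11, 0.49 and -3.16, with folds of 44.3, 57.8 and 4.58. For these interleukin 1 genes and Acod1 the readings at 4 and 8 h lay close together, and the 24 h reading was far below both.

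Other sustained genes of this shape were receptors and surface proteins. Clec4e, a macrophage receptor for microbial and dead-cell lipids, was dim at 0 h and at least 21.9-fold, 24.2-fold and 3.5-fold higher after NCS. Fpr2, a receptor for formyl peptides, read -4.43, -2.41, -1.25 and -2.55, with folds of 4.04, 9.07 and 3.68. Gpr18, a receptor for lipid ligands, read -5.57, -2.51, -1.92 and -3.49, with folds of 8.35, 12.5 and 4.23. Tnfrsf18, the costimulatory receptor GITR, differed from them in staying level: it read -5.22 at 0 h and then -3.50, -3.46 and -3.32. Its response was 1.80 ± 0.33 (SE, limma adjusted p = 0.636). Cxcl3, which like Cxcl1 attracts neutrophils, was dim at 0 h and at least 14.3-fold, 20.2-fold and 5.61-fold higher. Sprr2d, a cornified envelope protein of skin, was dim at 0 h and at least 12.3-fold, 30.9-fold and 3.16-fold higher. Sprr2d stands on the epithelial marker list, of which 3 of 14 members lay above 0 h on all 3 treated arrays and 6 below. Not every cytokine held to 24 h. Cxcl2 was at least 8.92-fold and 4.77-fold higher at 4 and 8 h and again dim at 24 h. Csf2, the growth factor GM-CSF, was dim at 0 h, read -3.75 and -4.20 at 4 and 8 h, and was dim at 24 h.

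**Figure D2:**
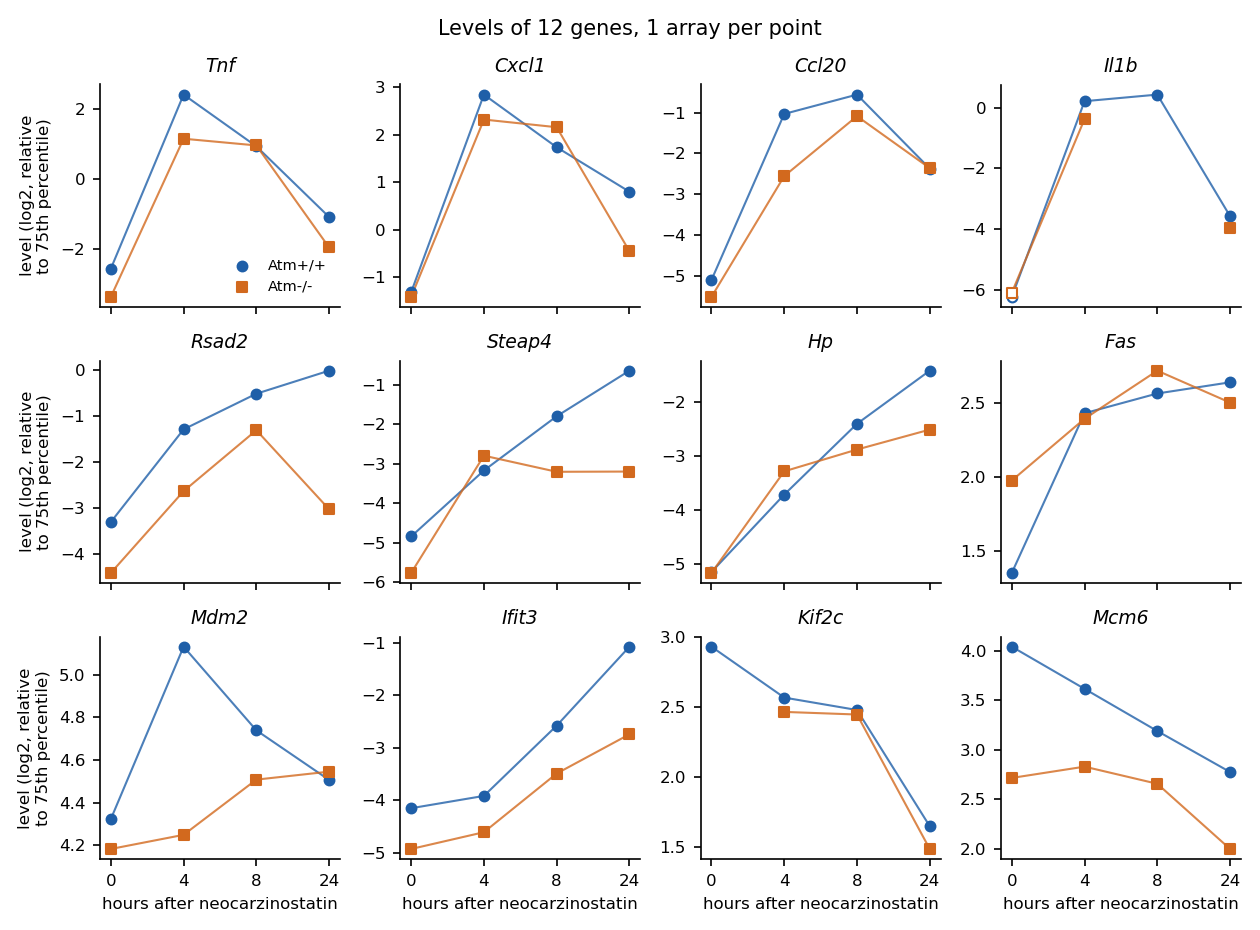
Level of 12 genes, as log2 intensity minus the 75th percentile of the array, in Atm+/+ (blue circles) and Atm-/- cells (orange squares) at 0, 4, 8 and 24 h, which are drawn evenly spaced. Each point is 1 array, open points were not well above background, and each panel has its own level axis. In Atm+/+ cells Tnf goes from -2.58 at 0 h to 2.41 at 4 h and back to -1.10, while Rsad2 goes from -3.30 to -0.02 with its highest reading at 24 h.

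As a list, the chemokines stood above 0 h throughout. Of 21 chemokine genes with all 3 values, 12 were above 0 h on all 3 treated arrays and 2 below, where over all 12661 genes the shares were 22.3% above and 30.7% below. Their median change was 0.89 at 4 h, 1.52 at 8 h and 1.21 at 24 h, against -0.03, -0.02 and -0.04 over all genes. None of the 24 chemokines kept was called, and 11 had an unadjusted p under 0.05, where 2.9% of all genes had. Of 36 measured NF-kB regulators and inflammatory effectors, 24 were above 0 h on all 3 arrays and none below. The median of that list was 0.66, 1.17 and 0.35, and 27 of the 36 were lower at 24 h than at 8 h. At least 2-fold higher were 14 at 4 h, 23 at 8 h and 7 at 24 h, against 0.972%, 1.82% and 2.37% of all genes. Of 20 measured interleukins and TNF family cytokines, 9 were above 0 h on all 3 arrays and 2 below, with medians of 0.48, 0.19 and 0.04. At least 2-fold higher were 7 members at 4 h, 7 at 8 h and 3 at 24 h. The count above 0 h was 5 rather than 9 when only probes well above background on all 8 arrays were used. Removing outlier spots before scaling put the 8 and 24 h medians at 1.56 and 1.58 for chemokines. In the same way they became 1.21 and 0.71 for the NF-kB list and 0.23 and 0.41 for the cytokines.

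Several of these genes are also made by macrophages, so the macrophage marker list is given beside them. Of its 23 markers with all 3 values, 14 were above 0 h on all 3 arrays and 1 below. The summed linear level of the 23 was 62.8 at 0 h, 68.0 at 4 h, 81.2 at 8 h and 99.0 at 24 h. Bright members such as Lyz2 weigh most in that sum. The median change of the list was 0.12, 0.48 and 0.56 at 4, 8 and 24 h. Removing outlier spots before scaling put the 24 h median at 0.93, and relative to all genes it was 0.60 under both scalings. Lyz2, the lysozyme of myeloid cells, read 3.22, 3.34, 4.11 and 4.58. Csf1r, the receptor for the macrophage growth factor, read 1.82, 2.15, 2.40 and 2.13. C1qa, a complement subunit made mainly by macrophages, read 2.48, 2.43, 2.18 and 2.91, and the myeloid transcription factor Spi1 read 2.08, 1.93, 1.92 and 2.15. Apart from Lyz2, these markers thus stayed within 1 log2 unit over the 4 arrays. Other members varied more. The scavenger receptor Marco read -0.22, 1.09, 2.63 and 2.53, and the lipopolysaccharide receptor Cd14 read 0.56, 1.86, 2.27 and 1.44. Itgam read -2.65, -2.50, -1.91 and -1.41, and Cd52 read -1.40, -0.77, -0.37 and 0.14. Some members were lower at 4 and 8 h. Trem2 read 0.74, 0.24, -0.01 and 0.33, and Fcgr3 read 1.34, 1.18, 0.60 and 1.57. Fcgr1, well above background on 2 of the 4 arrays, read -4.62, -5.96, -5.74 and -3.73. Of the markers measured at each time, 3, 5 and 6 were at least 2-fold higher at 4, 8 and 24 h. At least 2-fold lower were 1, 1 and 0. Over all genes the shares were 0.972%, 1.82% and 2.37% higher and 0.373%, 1.08% and 2.4% lower. The part of macrophages in the inflammatory changes was not tested. In RNA from a whole culture, more cells of a type and more RNA per cell cannot be told apart.

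The promoters of this group were searched for a core NF-kB motif, GGGNNTTTCC, on both strands of the 300 bases around each RefSeq transcription start (GRCm38.p6). It was found in 1.63% of all 32851 promoters, in 8 of 38 promoters of the sustained genes up (21.1%), in 4 of 17 chemokine promoters (23.5%) and in none of 25 promoters of the sustained genes down. Ccl20 and Cxcl1 are shown because they represent the 8 h and 4 h peaks. Each sequence gives the 200 bases before the start in the direction of the gene, on the plus strand at chr1:83116566-83116765 for Ccl20 and at chr5:90891045-90891244 for Cxcl1, and capitals mark the matches. The match of Ccl20 begins 80 bases before the start on the other strand. Those of Cxcl1 begin 89 bases before it on the other strand and 71 bases before it on the strand of the gene. A match is a description of the letters and does not show binding.
Ccl20: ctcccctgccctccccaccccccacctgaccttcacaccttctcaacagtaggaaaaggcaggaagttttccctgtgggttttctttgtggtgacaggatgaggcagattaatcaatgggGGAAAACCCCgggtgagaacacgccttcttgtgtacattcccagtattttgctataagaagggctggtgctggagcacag
Cxcl1: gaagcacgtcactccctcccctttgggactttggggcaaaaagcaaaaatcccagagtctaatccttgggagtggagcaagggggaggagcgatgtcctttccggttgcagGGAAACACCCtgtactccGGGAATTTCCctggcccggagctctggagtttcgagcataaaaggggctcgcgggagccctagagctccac

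A smaller group was highest at 24 h, with acute-phase and interferon genes among it. C3, Hp, Lcn2, Rsad2 and Steap4 were the 5 sustained genes that were higher at each later time with at least 1 log2 unit between 4 and 24 h. Steap4, a metalloreductase induced by inflammatory cytokines, read -4.84, -3.17, -1.79 and -0.64, or 3.19-fold, 8.28-fold and 18.5-fold above 0 h. Haptoglobin, Hp, the haemoglobin-binding plasma protein, read -5.15, -3.71, -2.40 and -1.41, with folds of 2.71, 6.73 and 13.3. Lcn2, which withholds iron from bacteria by binding siderophores, read -4.86, -3.61, -1.83 and -1.51, with folds of 2.38, 8.12 and 10.2. The central complement component C3 read -1.40, -0.38, 0.78 and 1.53, with folds of 2.04, 4.53 and 7.61. Each of these 4 genes of acute-phase, complement and metal-handling proteins had its highest reading at 24 h, when the readings of Tnf, Il1b and Acod1 were below those at 8 h. None of these 4 genes was called, and the mean response of Steap4 was 2.98 ± 0.82 (SE, limma adjusted p = 1.00).

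Interferon-stimulated genes were the late arm of the immune changes. Of 54 measured, 30 were above 0 h on all 3 treated arrays and 3 below, and 26 of those 30 were highest at 24 h. The median change of the list was 0.06 at 4 h, 0.37 at 8 h and 0.81 at 24 h, and at least 2-fold higher were 2, 9 and 21 genes. None was called and 5 had an unadjusted p under 0.05. Removing outlier spots before scaling put the 24 h median at 1.18 and the count at 34, and relative to the median of all genes the 24 h value was 0.85 under both scalings. Ifit3 and Ifit3b, antiviral proteins of the same family, were near 0 h at 4 h and highest at 24 h. Ifit3 read -4.15, -3.92, -2.58 and -1.08, and Ifit3b read -2.88, -2.80, -1.33 and 0.26. The 24 h readings were 8.42-fold and 8.81-fold above 0 h, the 4 h readings 1.18-fold and 1.06-fold. They are near-identical copies, so their probes may share signal. Rsad2, the antiviral enzyme viperin, was already 4.02-fold higher at 4 h and went on to 6.87-fold and 9.71-fold, with readings of -3.30, -1.29, -0.52 and -0.02. Gbp6, a GTPase that attacks intracellular pathogens, was among the 4 of those 30 that were not highest at 24 h: dim at 0 h, it was at least 6.63-fold, 2.92-fold and 3.15-fold higher. The remaining members included some with no shift, such as Irf9, a subunit of the complex that carries the interferon signal, with changes of -0.17, -0.12 and 0.02.

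The interferon response motif GAAANNGAAA was found on either strand in 3.44% of all promoters and in 25 of 51 promoters of the interferon list (49.0%). Among the promoters of sustained genes up it was found in 3 of 38. Rsad2 and Ifit3 are shown because Rsad2 was already higher at 4 h while Ifit3 was still near 0 h then. Both were highest at 24 h. The regions, again the 200 bases before the start in the direction of the gene, are chr12:26456453-26456652 on the minus strand for Rsad2 and chr19:34583329-34583528 on the plus strand for Ifit3. Capitals mark the motif, which lies on the other strand in both, beginning 120 bases before the start of Rsad2 and 156 and 122 bases before that of Ifit3.
Rsad2: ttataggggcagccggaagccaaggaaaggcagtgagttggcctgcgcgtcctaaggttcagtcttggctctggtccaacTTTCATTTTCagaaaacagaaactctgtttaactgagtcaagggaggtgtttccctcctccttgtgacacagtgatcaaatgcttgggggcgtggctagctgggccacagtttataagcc
Ifit3: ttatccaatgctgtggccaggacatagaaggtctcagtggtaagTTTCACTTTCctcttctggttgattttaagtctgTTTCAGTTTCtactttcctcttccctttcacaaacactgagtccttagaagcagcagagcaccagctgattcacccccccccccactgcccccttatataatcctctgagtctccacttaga

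**Figure D3:**
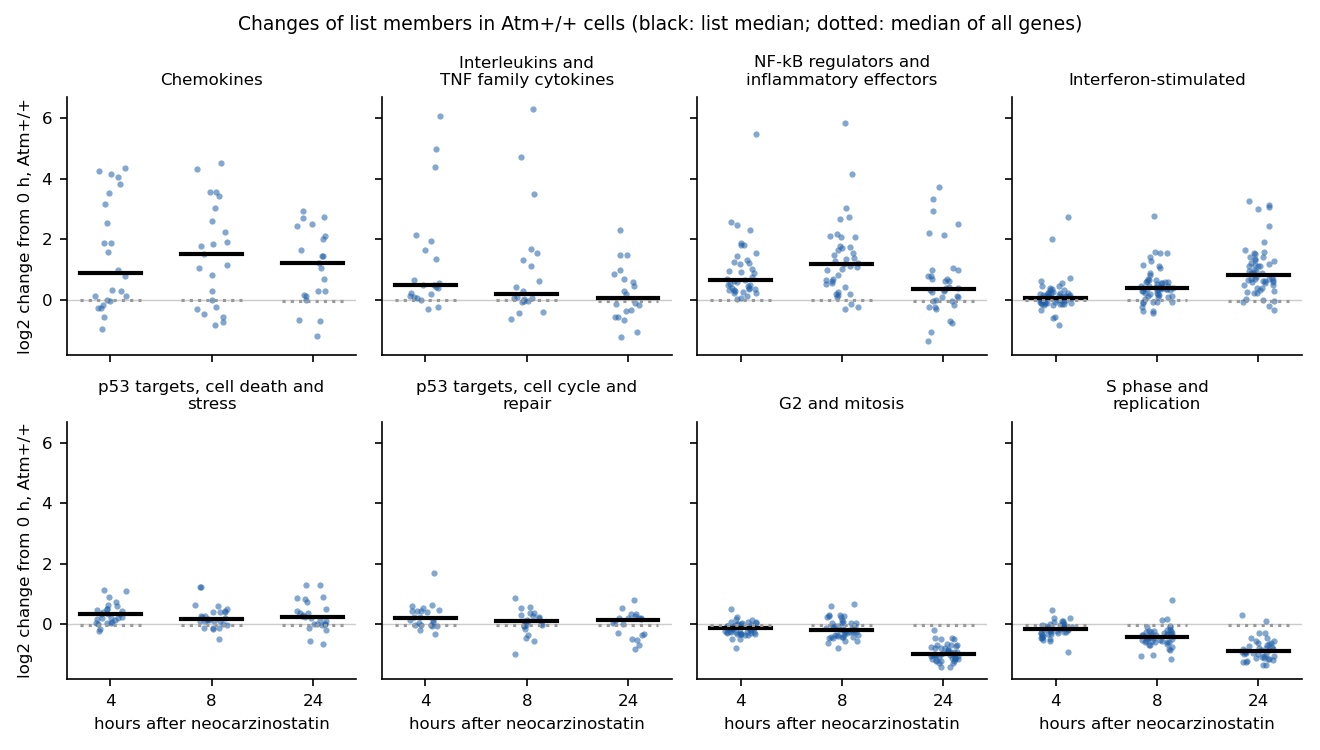
Change from 0 h on the log2 scale at 4, 8 and 24 h for the genes of each list in Atm+/+ cells, with the median marked. NF-kB regulators peak at 8 h with a median of 1.17, interferon-stimulated genes are highest at 24 h with 0.81, and G2 and mitosis genes reach -0.995 at 24 h.

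Some targets of p53 were above 0 h on all 3 treated arrays. Fas, the death receptor, read 1.35 at 0 h and 2.43, 2.56 and 2.64 after NCS, which is 2.11-fold, 2.32-fold and 2.44-fold higher on the 3 arrays. Its response was 1.19 ± 0.19 (SE, limma adjusted p = 0.449), and a second Fas probe gave changes of 0.94, 0.90 and 0.85. Dcxr, a carbonyl reductase listed among p53 targets, read 0.34, 1.25, 1.57 and 1.64, with folds of 1.88, 2.35 and 2.46. Gadd45a, a stress protein that slows entry into mitosis, read 1.38, 1.90, 2.24 and 2.17. In these 3 genes the 4 h reading was already well above 0 h and the 8 and 24 h readings stayed near or above it. Tap1, the peptide transporter of antigen presentation, read 2.29, 2.93, 2.91 and 3.17, and the zinc finger gene Zfp365 read 1.31, 1.92, 1.83 and 1.85, with the same shape at a smaller size. Tap1 stands on the interferon list as well. Of 25 measured p53 targets of cell death and stress, 16 were above 0 h on all 3 arrays and 2 below, with medians of 0.33, 0.16 and 0.24. Of 20 measured p53 targets of cell cycle and repair, 9 were above and 2 below, with medians of 0.18, 0.10 and 0.12. None of either list was called, and 3 and 2 members had an unadjusted p under 0.05, where 2.9% of all genes had. Removing outlier spots before scaling put the 24 h medians of the 2 lists at 0.61 and 0.49, the highest of the 3 times. The counts above and below were then 20 and 1, and 10 and 1. Over all 12661 genes the counts above and below also moved, from 2824 and 3881 to 3945 and 1584. Relative to the median of all genes the 24 h medians of the 2 lists were 0.28 and 0.16 under both scalings.

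With the scaling used here, the feedback genes of p53 were highest at 4 h and lower afterwards. Mdm2, the ligase that marks p53 for degradation, read 4.32, 5.13, 4.74 and 4.51, or 1.75-fold, 1.33-fold and 1.14-fold above 0 h, with a response of 0.47 ± 0.27 (SE, limma adjusted p = 1.00). Ccng1, the p53-induced cyclin G1, read 4.72, 5.19, 5.10 and 4.91. Cdkn1a, the cyclin-dependent kinase inhibitor p21, read 2.39, 2.79, 2.50 and 2.07, and a second probe read 2.37, 2.60, 2.51 and 2.05. Their 24 h changes were -0.33 and -0.32, and became 0.04 and 0.05 with outlier spots removed before scaling. The 24 h change of Mdm2 went from 0.18 to 0.55 in the same way. The median 24 h change of all genes moved from -0.04 to 0.33, so the close 4 and 24 h readings of Ccng1 can change order. Mdm2, Ccng1 and Cdkn1a all stayed under 2-fold. Btg2, an antiproliferative p53 target, was 3.25-fold above 0 h at 4 h, with readings of -5.63 and -3.93, and then returned to -5.41 at 8 h. Gdf15, a secreted stress factor, read 0.27, 1.39, 0.72 and 0.64 and was 2.16-fold above 0 h at 4 h. Of Trp53 itself, the brighter probe read 0.89, 0.35 and -0.29 at 0, 4 and 8 h and had no value at 24 h. A second Trp53 probe gave changes of -0.13, -0.12 and 0.52, so the probes of this gene disagree. Atm read -2.07, -2.18, -1.95 and -2.43, with changes of -0.12, 0.12 and -0.36, the last of which became 0.00 with outlier spots removed before scaling.

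Genes of cell division were lower, and most of that difference appeared between 8 and 24 h. Of 45 measured G2 and mitosis genes, 26 were below 0 h on all 3 treated arrays and none above. Their median change was -0.14 at 4 h, -0.19 at 8 h and -0.995 at 24 h, and 44 of the 45 were lower at 24 h than at 8 h. At least 2-fold lower were 0, 0 and 22 genes, where 2.4% of all genes were at 24 h, and 19 members had the late shape. No member was called or had an unadjusted p under 0.05, and the tested quantity is the mean of all 3 treated arrays. Removing outlier spots before scaling left 2 of the 22 at 2-fold and put the median at -0.63. Relative to the median of all genes the list stood at -0.95 under both scalings. Kif2c, a kinesin that corrects chromosome attachment, read 2.93, 2.57, 2.48 and 1.65, which is 2.42-fold lower at 24 h. Mybl2, the factor that with FoxM1 switches on mitotic genes, read -1.13, -1.63, -1.94 and -2.56, and Anln, a scaffold of the cleavage furrow, read -3.14, -3.62, -3.57 and -4.38. These were 2.69-fold and 2.36-fold lower at 24 h.

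Replication genes were lower by a similar amount at 24 h, with a lower median than the mitotic genes at 8 h. Of 42 measured S phase genes, 34 were below 0 h on all 3 treated arrays and 1 above, with medians of -0.17, -0.42 and -0.89. Of them 37 were lower at 24 h than at 8 h, 3 were at least 2-fold lower at 8 h, where 1.08% of all genes were, and 16 were so at 24 h, or 1 with outlier spots removed before scaling. None was called and 1 had an unadjusted p under 0.05. Cdc6, which loads the replicative helicase onto origins, read -2.38, -3.31, -3.55 and -3.56, so its 3 treated readings were all lower and lay close together. It was 1.9-fold, 2.25-fold and 2.25-fold lower, with a response of -1.09 ± 0.33 (SE, limma adjusted p = 1.00). Mcm6, a subunit of that helicase, was lower at each later time: it read 4.04, 3.61, 3.19 and 2.78, which is 1.34-fold, 1.8-fold and 2.4-fold lower. Cdt1, the partner of Cdc6 in loading, read 2.68, 2.17, 2.15 and 1.41. The DNA repair list had 17 of 36 members below 0 h on all 3 arrays and 6 above, and its 24 h median of -0.35 became 0.02 with outlier spots removed before scaling.

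Motifs of cell cycle promoters were searched in the same windows. TTTGAA, the core of the cell cycle homology region that the DREAM complex binds, was found on either strand in 17.9% of all promoters and in 33 of 47 G2 and mitosis promoters (70.2%). TTTGGCGC, an E2F motif, was found in 0.514% of all promoters and in 8 of 45 S phase promoters (17.8%). Kif2c and Mcm6 are shown as the members of each list that had the late and the stepwise course. Both lie on the minus strand, at chr4:117178773-117178972 and chr1:128359706-128359905, and the sequences give the 200 bases before the start in the direction of the gene with the matches in capitals. The match of Kif2c begins 103 bases before the start on the other strand, and those of Mcm6 begin 110 and 47 bases before it on the strand of the gene.
Kif2c: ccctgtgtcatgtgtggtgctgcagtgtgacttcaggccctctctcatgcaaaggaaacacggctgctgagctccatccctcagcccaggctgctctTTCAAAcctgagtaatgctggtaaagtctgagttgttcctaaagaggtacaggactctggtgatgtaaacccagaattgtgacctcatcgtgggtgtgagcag
Mcm6: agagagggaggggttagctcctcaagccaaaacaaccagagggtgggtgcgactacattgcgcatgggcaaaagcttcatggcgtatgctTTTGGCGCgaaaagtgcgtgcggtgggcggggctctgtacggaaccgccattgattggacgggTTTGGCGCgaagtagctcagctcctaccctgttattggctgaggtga

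Other stress programmes showed no common course. Of 31 measured immediate-early genes, 2 were above 0 h on all 3 arrays and 12 below. Dusp5, a phosphatase of the kinase ERK, read -4.05, -4.81, -5.04 and was dim at 24 h. Of 24 measured Nrf2 and oxidative stress genes, 5 were above and 7 below. Within that list the metal-binding Mt2 read 6.09, 6.07, 5.60 and 4.55, which is 2.91-fold lower at 24 h. Of 22 genes of the integrated stress response, 3 were above and 12 below, and Phgdh, the first enzyme of serine synthesis, read 3.23, 2.81, 2.75 and 1.70. Mt2 and Phgdh thus stayed within 0.5 of their 0 h level until 8 h and were lower at 24 h. Core histones went both ways, 18 above and 16 below of 47: H2ac22 read 2.26, 1.98, 0.86 and 0.82, and the linker histone H1f4 read -4.09, -3.63, -3.29 and -2.95. Matrix genes stayed near 0, with 4 of 39 above, 14 below and medians of -0.07, -0.07 and -0.00. Ibsp, a bone matrix protein, was dim at 0 and 4 h and read -4.67 at 8 h and -1.24 at 24 h, where it was at least 24.9-fold higher. In Atm-/- cells its changes were 3.51, -0.58 and 0.21. These list counts turn on the scaling of the 24 h array. So do those over all 12661 genes: 3945 above and 1584 below after outlier removal, in place of 2824 and 3881. With outlier spots removed before scaling, the immediate-early list had 6 above and 3 below, and its 24 h median went from -0.27 to 0.09. In the same way the Nrf2 list had 9 above and 6 below, with a 24 h median of 0.15 in place of -0.22, and the integrated stress response list 4 and 8, with 0.04 in place of -0.33. Core histones had 20 above and 6 below, and matrix genes 4 above and 2 below with a 24 h median of 0.37.

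The 2 probes called by the model, B3gnt2 and Olfr533, fell. B3gnt2, an enzyme that builds N-acetyllactosamine chains on glycans, read 3.65 at 0 h and 1.20, 1.21 and 1.23 after NCS. It was 5.44-fold, 5.4-fold and 5.34-fold lower, with a response of -2.43 ± 0.18 (SE, limma adjusted p = 0.0437). The Atm-/- level was 1.38 already at 0 h, with changes of 0.03, 0.02 and -0.25, so of the 8 arrays only the Atm+/+ 0 h array stood apart. Olfr533, an olfactory receptor, read -2.30 at 0 h and was dim on the 3 treated arrays, at least 11.8-fold, 10.8-fold and 9.71-fold lower (response -5.36 ± 0.36, SE, limma adjusted p = 0.0437). Its Atm-/- level at 0 h was -5.58, and with normexp background correction, which lifts dim readings, the response was -2.14. The B3gnt2 call was lost when any 1 treated array of either genotype was left out, and neither probe was called in a fit on the 4 Atm+/+ arrays alone.

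Most of the other sustained probes down had the same make-up. In 39 of the 41 the Atm+/+ 0 h array was above all 7 other arrays of the series, whereas in the 58 sustained probes up it was below all 7 others in 20. Hyal1, a hyaluronidase, read -0.25 at 0 h and -5.83 and -4.83 at 4 and 8 h, and was dim at 24 h, while the Atm-/- array at 0 h read -4.45. Slc9a7, a sodium and proton exchanger of the Golgi, read -2.35, -4.69, -4.47 and -4.81 (limma adjusted p = 0.0585), against -4.08 in Atm-/- at 0 h. B4galt4, a galactosyltransferase, read -3.48, -5.43 and -5.48 and was dim at 24 h, against -4.74 in Atm-/- at 0 h. In these genes the Atm+/+ 0 h array read above all 7 others. With 1 array at 0 h in each genotype, a fall over time and a high reading of that array cannot be told apart. Of the 41 probes, 16 were dim on all 3 treated arrays, and 18 (43.9%) had another member of the set within 5 rows and 2 columns of their spot. Among the sustained probes up, 10 of 58 had such a neighbour (17.2%). The part of spot position in these readings was not tested.

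Noncoding transcripts, the subject of the study, were found among sustained probes in both directions. Of 6424 noncoding probes kept, 10 were sustained up (0.156%) and 18 down (0.28%), against 48 (0.295%) and 23 (0.141%) of the 16255 other probes. AK036493, which overlaps another transcript on the same strand, read -4.09, 0.55, 1.13 and -1.89, or 24.9-fold, 37.1-fold and 4.58-fold above 0 h. It thus followed the 8 h peak seen in Ccl20 and Il1a. That overlapping class holds 5 of the 10 probes up and 7 of the 18 down. Signal of the overlapped transcript was not separated from theirs. The intergenic AK030791 read -3.25, -0.67, -0.80 and -1.84, highest at 4 h. The transcript uc008jhl was highest at 24 h, with readings of -4.46, -2.85, -2.57 and -2.28, while its Atm-/- changes were -0.04, 0.36 and 0.98. The difference of response between the genotypes was 1.46 ± 0.26 for it (SE, limma adjusted p = 1.00). Among those down, uc007vgq read -2.29, -5.24, -5.15 and -4.93, and AK021308 read -2.91 at 0 h and was dim on the 3 treated arrays. Of the list of 21 long noncoding RNAs linked to damage or well known, 5 were above 0 h on all 3 arrays and 5 below, or 8 and 3 with outlier spots removed before scaling. Over all 12661 genes these counts were 2824 and 3881, or 3945 and 1584 in the same way.

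Many transient and late probes rested on 1 array. Of the 187 transient probes up, 161 passed 2-fold on only 1 array. Kcnq1ot1, the noncoding RNA that silences an imprinted domain, was dim at 0 and 24 h and read -5.27 and -1.67 at 4 and 8 h. Sox14, a neural transcription factor, read -5.72, -5.52 and -2.17 and was dim at 24 h. Where the gene had another probe with all 3 values, one was at least 0.5 from 0 h in the same direction at the time of the largest change for 13 of 21 transient probes up and 5 of 11 down. For late probes this held in 26 of 28 up and 39 of 42 down, and for sustained ones in 9 of 11 up and 2 of 3 down. Cdh19, a cadherin of the nerve sheath, read -4.54, -4.60, -4.90 and 0.90, which is 43.5-fold above 0 h at 24 h. Ndufa4l2, a mitochondrial protein induced by low oxygen, read -3.18, -3.10, -2.85 and -0.01, a 9-fold difference at 24 h. Among those lower, Xpnpep1, a peptidase of the cytoplasm, read 0.29, 0.09, 0.26 and -1.79. Arhgap25, known from leukocytes, was lower at 4 h by 1.65 on the log2 scale on both of its probes, and was at -1.56 at 4 h in Atm-/- cells as well.

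Bright probes were the most affected by the outlier marks at 24 h. The 1514 probes with no 24 h value had a median 0 h level of 1.31, against -1.21 in those measured, so shapes could not be given for many strongly expressed genes. Of them 6 were at least 2-fold higher at both 4 and 8 h, and the genes named next were chosen after their values were seen. Saa3, an acute-phase protein of inflamed tissue, read 0.58 at 0 h, with changes of 2.48 and 4.15. Cxcl10, an interferon-induced attractant of T cells, read -0.90 at 0 h, with changes of 3.52 and 3.56, and Cxcl5, a neutrophil attractant, read 0.75, with changes of 1.86 and 2.62. With the marked 24 h spots taken as given, their changes there were 3.85, 3.41 and 2.58. All 3 would then have been sustained. They are not in the counts above.

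In Atm-/- cells most of the sustained probes up also read above their 0 h array. Of the 58 probes, 50 were above the Atm-/- 0 h array on all 3 Atm-/- treated arrays, and 25 were at least 2-fold above it on all 3. Rsad2 had Atm-/- changes of 1.77, 3.09 and 1.38 on the log2 scale and Steap4 of 2.97, 2.57 and 2.57, so neither was highest at 24 h there. Chemokines had Atm-/- medians of 0.70, 1.36 and 0.79, NF-kB genes 0.49, 0.93 and 0.12, and interferon genes 0.06, 0.34 and 0.71. The p53 targets of cell death and stress had Atm-/- medians of 0.14, 0.17 and 0.10, and Fas had Atm-/- changes of 0.42, 0.74 and 0.53. The difference of response for Fas was 0.63 ± 0.22 (SE, limma adjusted p = 1.00, unadjusted p = 0.0404), and its Atm-/- level at 0 h was 1.97. Mdm2 had Atm-/- changes of 0.07, 0.33 and 0.36, with the highest reading at 24 h rather than at 4 h. G2 and mitosis genes had Atm-/- medians of -0.01, -0.10 and -0.72 and S phase genes 0.05, -0.12 and -0.64. Over all probes, the difference of response called 0 of 22928 (0%), with 568 at an unadjusted p under 0.05 (2.48%), in a fit with 2 residual degrees of freedom. Each genotype lay on its own slide, so slide and genotype cannot be told apart.

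**Figure D4:**
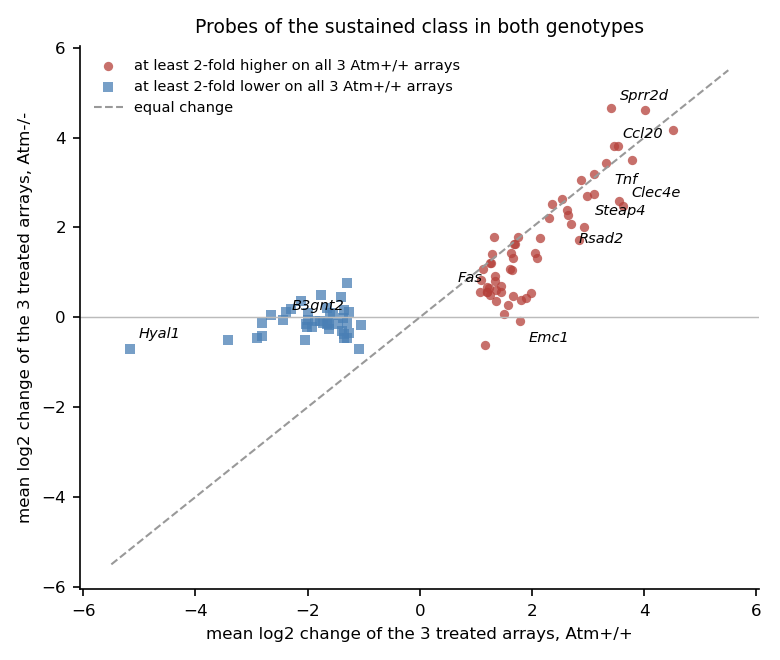
Mean change of the 3 treated arrays in Atm+/+ against that in Atm-/-, on the log2 scale, for the 57 probes sustained up (red circles) and 41 sustained down (blue squares) that have a mean in both genotypes. The dashed line marks equal change. Most red circles lie near or below the line and above 0 on the Atm-/- axis, while the blue squares lie near 0 on it.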

How the data were processed

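RNA was labelled with Cy3 by random priming along whole transcripts after ribosomal RNA removal, per the labels' protocols. Agilent's Feature Extraction 10.5.1.1 gave each spot, per the file headers, a processed intensity, background-subtracted and detrended within the array, for a design on the mouse build mm9. Both series-wide deposited tables cover noncoding probes alone: one repeats these intensities, and the other gives log2 values that equal log2 of the processed intensity minus a constant per array, which the authors' header calls ratios. Levels by the authors' constants differed in their changes by 0.03, 0.02 and 0.04 at 4, 8 and 24 h.

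Here control spots were dropped, spots of a probe averaged on the log2 scale, and the 75th percentile of the array subtracted. A value was left out where every spot was marked as an outlier. Of 37246 probes, 23299 passed as well above background on 2 or more of the 8 arrays and were kept, and 22679 of these on at least 1 Atm+/+ array. Changes were computed after raising readings below the array's floor, the lowest signal well above background, to that floor; levels are printed unraised. The SD over probes spotted 10 times had a median of 0.0817 to 0.0904 per array. Precision is limited by 1 array per condition. Of 22838 probes with a RefSeq accession, 22216 were named from RefSeq, and a gene is given by its probe with the highest mean.

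limma 3.58.1 in R 4.3.3 gave two-sided tests with Benjamini-Hochberg adjustment over all kept probes with a value; 6 false calls were made in simulated data of 21558 probes. The difference of response came from a model with time, genotype and genotype by treatment. Shapes, counts and medians were computed in Python 3.11.15 with pandas 2.3.3 and numpy 2.4.6. The arrays, the 23 gene lists and the tests were chosen with earlier results of these data known. Named genes were the 15 symbols sustained up and 10 down with the largest smallest-of-3 change, 8 and 5 noncoding probes likewise, 6 per direction for transient and late shapes, the 4 per list with the largest mean change of one sign, the probes called, and Atm, Trp53, Mdm2, Cdkn1a and Ccng1; other genes named are markers or were chosen after their values were seen. Alternatives changed the scaling (quantile, normexp with offset 50), the background filter, outlier handling, the fold and the model, or left out 1 array. Some genes that the naming rule selects are not reported here.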

Additional observations from a re-analysis of the deposited data

Results flagged for a closer look

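Slc9a7, a Golgi exchanger of sodium and protons, was singled out because its 3 treated Atm+/+ arrays all read below their 0 h array and its 3 treated Atm-/- arrays all read above theirs. The Atm+/+ changes were -2.34, -2.11 and -2.46 on the log2 scale at 4, 8 and 24 h, and the Atm-/- changes were 0.20, 0.23 and 0.12. The difference of response was -2.48 ± 0.21 (SE, limma unadjusted p = 0.0002, adjusted p = 1.00), so it was not called over all probes. The Atm+/+ 0 h array read -2.35, while the Atm-/- 0 h array read -4.08 and the treated Atm+/+ arrays -4.69, -4.47 and -4.81. The contrast rests on that single 0 h array.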

How the results depend on the processing

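No paired analysis was possible because the labels give no replicate numbers and each condition has 1 array. The number called higher, 0, became 1 without the Atm+/+ 4 h array and ran from 0 to 1 over the arrays left out. The number called lower, 2, was 105 over all measured probes, 7 with outlier values kept (an alternative chosen after seeing the data), 1 with an intensity trend, 1 with outlier spots removed before scaling, 0 on the 4 Atm+/+ arrays alone, 0 with time as a term, and 0 to 3 with 1 array left out. The lone 0 h array was assumed to vary like the others in each fit.

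Counts of shapes depended on the fold and the background treatment; the cause was not tested. At 1.5-fold the counts higher and lower were 528 and 450 at 4 h, 1079 and 1110 at 8 h, and 1528 and 2035 at 24 h. With normexp they were 110 and 35, 185 and 104, and 268 and 239. With probes well above background on all 8 arrays, 4 h gave 131 and 48 and 8 h gave 172 lower; with dim readings as given, 166 were lower at 4 h. Removing outlier spots before scaling gave 1340 and 108 at 24 h. Sustained probes numbered 183 up and 120 down at 1.5-fold, 10 and 9 at 4-fold, and 36 and 15 with normexp, with 12 down on all 8 arrays. Leaving out 1 treated array, an alternative added after seeing the data, gave 65 to 136 up and 42 to 69 down.

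Transient probes up and down numbered 472 and 457 at 1.5-fold (0.3 for no change), 78 and 31 with normexp, and 82 and 81 on all 8 arrays, with 73 up after outlier removal and 203 down with dim readings as given. Late probes numbered 522 and 800 at 1.5-fold and 697 and 45 after outlier removal, with 133 down under normexp. Other shapes past 2-fold numbered 1032 and 1438 at 1.5-fold, 170 and 139 with normexp, and 719 and 132 after outlier removal, with 445 down with dim readings as given. The cytokine list had 5 members above 0 h on all 8-array probes.

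Of mean responses of named genes, 10 values changed sign. With 1 array left out Arhgap25 ran from -0.877 to 0.129, Btg2 from -0.277 to 0.963, Cdkn1a from -0.111 to 0.253, Gm128 from -1.90 to 0.0101, Kcnb2 from -0.495 to 1.48, Arid4a from -0.134 to 1.70, Catsperz from -0.333 to 1.28, Cdh19 from -0.208 to 2.69 and Atm from -0.24 to 0.002. Atm was 0.0149 with outlier spots removed before scaling.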
